A study of Mus musculus with 24 samples.

Results

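Skeletal muscle makes its thin-filament switch and its myosin light chains from separate genes in slow and in fast fibers, and 10 of these genes are followed here in gastrocnemius, a muscle of the calf. The slow genes are Tnni1, Tnnt1, Tnnc1, Myl2 and Myl3, and their fast paralogs are Tnni2, Tnnt3, Tnnc2, Mylpf and Myl1. They were taken by symbol from the 55385 genes of the count tables, and all 10 had an entry. RNA was sequenced from female C57BL/6J mice of 3 age classes, young (3 to 6 months), old (21 to 24 months) and oldest-old (27 to 29 months). The groups other than Sham had received an adeno-associated virus through the tail vein, and what the Sham group received is not stated. The virus carried either green fluorescent protein (AAV-GFP, called GFP here) or mouse Klotho under a liver-specific promoter (AAV-Kl). The 6 groups were young Sham, young GFP, old GFP, old AAV-Kl, oldest-old GFP and oldest-old AAV-Kl, with 4 libraries in each and 24 in all. Each library of the GFP and AAV-Kl groups came from 1 mouse, with tissue taken 14 days after injection. Animals entered the study only from the middle of the range of a hang test. The labels say no more of the young mice labelled Sham than that word, and no young mice received AAV-Kl.

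Contraction is switched on when calcium binds troponin C, which moves troponin I off actin, while troponin T ties the complex to tropomyosin. The regulatory and essential light chains wrap the neck of the myosin head and tune its speed and force. Slow fibers, which resist fatigue, use Tnni1, Tnnt1, Tnnc1, Myl2 and Myl3, and the last 3 of these are also made in the heart. Fast fibers, which make up most of a mouse gastrocnemius, use the other set, so the slow-to-fast balance of each pair is a common readout of fiber type.

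The paralogs are alike but not identical, and the stretches below are shown because they are where reads of a pair could most easily be confused. In the coding sequences of the mouse reference transcripts (GENCODE M21, GRCm38), identity between slow and fast paralogs ran from 71.16% for Tnnc1 and Tnnc2 to 75.84% for Myl3 and Myl1. The longest run shared without a mismatch was sought over the whole transcripts, untranslated ends included. It was 22 bases in the troponin I pair, 21 in the troponin C pair, 20 in both light chain pairs and 16 in the troponin T pair. The most alike stretch of 90 coding bases held 16 differences in the troponin I pair, 21 in the troponin C pair and 12 in the regulatory light chain pair. Capitals mark the bases that differ between the members of a pair. The troponin I stretches lie at chr1:135808711-135808800 (plus strand) and chr7:142443984-142444073 (plus strand), each within 1 exon. Those of troponin C lie at chr14:31211347-31211525 (plus strand) and chr2:164777314-164777541 (minus strand), and those of the regulatory light chain at chr5:122101782-122102728 (plus strand) and chr7:127212897-127213197 (plus strand), where both pairs cross an intron.
Tnni1: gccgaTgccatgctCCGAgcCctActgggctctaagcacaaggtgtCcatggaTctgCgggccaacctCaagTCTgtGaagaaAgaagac
Tnni2: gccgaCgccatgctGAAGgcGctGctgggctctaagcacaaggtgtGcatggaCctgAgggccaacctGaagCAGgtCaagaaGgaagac
Tnnc1: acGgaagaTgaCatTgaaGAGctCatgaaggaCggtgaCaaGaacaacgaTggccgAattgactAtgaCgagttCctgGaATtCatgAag
Tnnc2: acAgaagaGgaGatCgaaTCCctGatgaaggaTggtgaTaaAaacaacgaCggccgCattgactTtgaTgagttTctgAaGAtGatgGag
Myl2: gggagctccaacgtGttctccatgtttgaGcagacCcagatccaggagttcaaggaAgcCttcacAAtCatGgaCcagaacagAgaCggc
Mylpf: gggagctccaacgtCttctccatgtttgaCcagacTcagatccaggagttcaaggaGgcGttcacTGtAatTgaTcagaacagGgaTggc

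One fast member could not be read from the counts made without regard to strand. Tnnc2 (chr2:164777161-164779967, minus strand) shares 592 of its 800 exon bases with Ube2c, a cell-cycle ubiquitin-conjugating enzyme on the opposite strand, and the counting step leaves out a read that falls on both. Without regard to strand, 242 reads were counted on Tnnc2 over the 24 libraries. In the columns that count each strand separately, 8008934 reads were counted, with 241469 to 403327 per library. For Ube2c the corresponding totals were 3985 and 8012587 reads, so the strand columns gave nearly the same number for both genes. The first strand column held 49.8% to 50.4% of the reads in each library, so the libraries do not mark strand and reads on the shared stretch cannot be assigned to either gene by strand. The 242 reads that fell on Tnnc2 alone lay on its 208 exon bases outside Ube2c. The 3985 reads that fell on Ube2c alone lay on its 2008 exon bases outside Tnnc2. These reads do not settle how the shared reads divide between the genes. Tnnc2 is given here from the sum of the strand columns, a choice made after these counts were seen. Its values therefore include any Ube2c reads on the shared stretch. The other 9 members kept at least 99.8% of their strand-summed reads without regard to strand, and those counts were used for them.

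**Figure D1:**
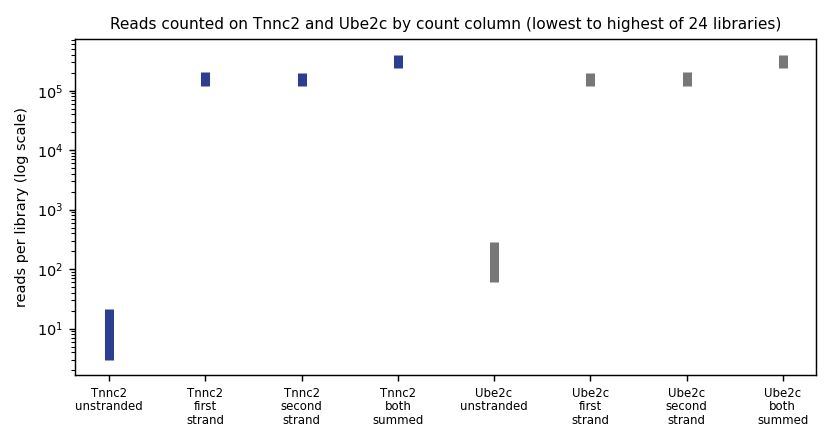
Reads per library counted on Tnnc2 (blue) and Ube2c (gray) by count column, on a log axis, where each bar runs from the lowest to the highest of 24 libraries. Tnnc2 held 3 to 21 reads per library without regard to strand and 241469 to 403327 with both strand columns summed.

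Depth ran from 36415886 to 59733985 reads on genes, 74.7% to 77.0% of the reads of a library. Values are CPM, the counts relative to library size after edgeR's TMM scaling, and tests are edgeR's quasi-likelihood test over the 17803 genes that passed its filter on low counts, with p-values adjusted over all of them by the Benjamini-Hochberg method. All 10 members passed that filter. Errors given after a log2 fold change are standard errors (SE). A gene is said to rise or fall only where its adjusted p was under 0.05. No libraries held identical counts. Markers of skeletal muscle fibers summed to 40689 to 62292 CPM in the 24 libraries, and those of cardiomyocytes to 3.69 to 13.1 CPM. Reads on Kl itself numbered 0 to 33 per library. Markers of other tissues were high in some libraries. Keratinocyte markers (8 genes) summed to 134 and 394 CPM in young GFP 1 and 3 and to 12.6 and 53.7 CPM in young GFP 2 and 4. In the old and oldest-old GFP groups they summed to 24.7 to 35.4 CPM. Liver markers (8 genes) summed to 869 and 89.3 CPM in old GFP 1 and 4 and to 3.79 and 1.01 CPM in old GFP 2 and 3. Outside these groups, liver markers summed to 136 CPM in old AAV-Kl 4 and keratinocyte markers to 149 CPM in young Sham 4. Adipocyte markers (6 genes) summed to 1622 CPM in old AAV-Kl 2 and 1486 CPM in oldest-old AAV-Kl 2. In the other libraries of those groups they summed to 222 to 340.1 CPM, and in young Sham to 272 to 1337 CPM. They summed to 992 and 711 CPM in young GFP 2 and 3, against 222 and 212 CPM in young GFP 1 and 4. Counts of members are therefore also given without named libraries. Young GFP 2 and 3 were left out 1 at a time and not together. In oldest-old against young GFP, 5 and 4 members then passed the test.

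The slow members stood far below the fast ones in every library. Per kilobase of exon, the median level over the 24 libraries was 12362 CPM for Tnnt3, the fast troponin T, followed by Tnnc2 (8588), Mylpf (6564), Tnni2 (4274) and Myl1 (3963). Among slow members the median per kilobase of exon was 138 CPM for Myl2, 117 for Tnnc1, 107 for Myl3, 106 for Tnnt1 and 25.1 for Tnni1. The ranges of these levels over the 24 libraries overlapped between all neighbors within each class. Such ranges do not compare the genes within the same library. Per kilobase of coding sequence the fast members still ranked above the slow ones, and Tnni1 was still the lowest. Slow members also varied more between libraries. The highest library was 6.14 times the lowest for Tnni1 and 5.15 times for Tnnt1, against 1.31 times for Tnni2 and 1.42 times for Tnnt3.

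**Figure D2:**
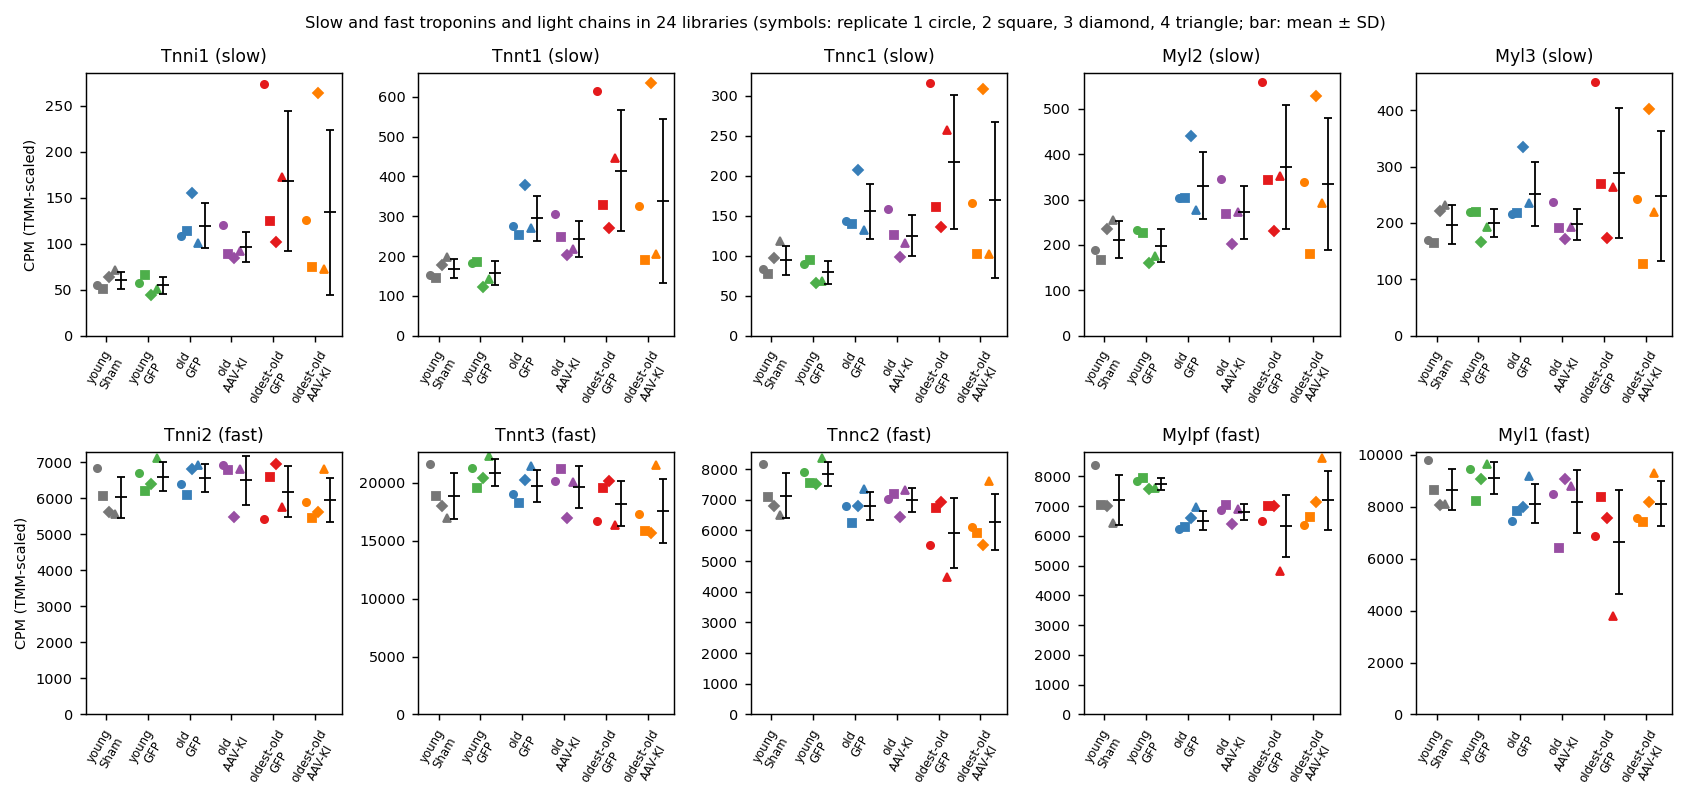
CPM (TMM-scaled, y axis from 0) of the 5 slow (top) and 5 fast (bottom) members in each of 24 libraries, by group, with the mean ± SD of 4 libraries in black. Tnni1 lay at 44.6 to 65.8 CPM in young GFP and at 102 to 274 CPM in oldest-old GFP, while the fast members differed far less between groups.

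The first comparison asks how these genes changed with age under the control virus. In oldest-old GFP muscle the slow troponins were about 3 times as high as in young GFP muscle, and 4 of the 5 slow members rose. Among fast members 1 of 5 fell, Tnnc2, whose reads on the shared stretch cannot be told from those of Ube2c, and none rose. In the same comparison 14.9% of the 17803 genes passed the test. Differences from young to old were smaller and of the same sign (that of Tnni2, near 0, turned positive with library totals alone as the scaling), and none of the 10 members passed the test there, where 4.7% of genes did. The median log2 fold change of the slow members was 0.90 in old and 1.39 in oldest-old against young GFP, and that of the fast members was -0.16 and -0.29. Over all genes tested these medians were 0.0020 and 0.027. In bulk RNA, more slow fibers and more slow RNA per fiber cannot be told apart.

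Slow troponin I, Tnni1 (chr1:135779434-135810989, plus strand), the inhibitory subunit, had 57.3, 65.8, 44.6 and 50.2 CPM in the 4 young GFP libraries. In old GFP it had 108, 114, 156 and 100.2 CPM, and in oldest-old GFP 274, 125, 102 and 173 CPM. Every old and oldest-old GFP library was above every young GFP one, and oldest-old GFP 1 and 4 were the highest. Its log2 fold change was 1.13 ± 0.33 (SE; adjusted p = 0.0520) in old and 1.63 ± 0.33 (SE; adjusted p = 0.00314) in oldest-old against young GFP, the latter a fold of 3.09. Tnnt1 (chr7:4504570-4516382, minus strand), the slow subunit that binds tropomyosin, had 182, 185, 123 and 141 CPM in young GFP. The old GFP values of Tnnt1 were 275, 252, 379 and 271 CPM, and those in oldest-old GFP were 615, 329, 269 and 446 CPM. Again no old or oldest-old GFP library reached down to the young range. The log2 fold change of Tnnt1 was 0.90 ± 0.30 (SE; adjusted p = 0.0924) in old and 1.39 ± 0.30 (SE; adjusted p = 0.00465) in oldest-old against young GFP.

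Tnnc1 (chr14:31208312-31211729, plus strand), the slow and cardiac calcium sensor, had 89.3, 93.9, 65.4 and 68.6 CPM in young GFP. It had 143, 139.9, 206 and 132 CPM in old GFP and 315, 161, 135 and 257 CPM in oldest-old GFP. These groups did not overlap with young GFP either. Tnnc1 differed by 0.97 ± 0.30 (SE; adjusted p = 0.0727) on the log2 scale in old and by 1.45 ± 0.31 (SE; adjusted p = 0.00371) in oldest-old against young GFP. Myl2 (chr5:122100951-122113472, plus strand), the slow regulatory light chain, had 232, 227, 161 and 175 CPM in young GFP. In old GFP it had 303, 303, 440.2 and 276 CPM, and in oldest-old GFP 559, 343, 230.2 and 352 CPM. Old GFP stood apart from young GFP, but oldest-old GFP 3 fell within the young range. Myl2 rose in oldest-old against young GFP, by 0.90 ± 0.27 (SE; adjusted p = 0.0317) on the log2 scale, and its value in old against young GFP was 0.74 ± 0.27 (SE; adjusted p = 0.133). Myl2 lost its call when oldest-old GFP 1 or 4, or young GFP 3 or 4, was left out, with log2 fold changes of 0.62 to 0.91 and adjusted p of 0.0586 to 0.141. Myl3 (chr9:110741861-110769798, plus strand), the slow essential light chain, overlapped between all 3 ages, with 167 to 220.1 CPM in young GFP, 215 to 335 CPM in old GFP and 173 to 449.9 CPM in the oldest-old. Its log2 fold change in oldest-old against young GFP was 0.53 ± 0.27 (SE; adjusted p = 0.195).

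The fast members moved less, and mostly downward. Tnnc2, the fast calcium sensor, had 7915, 7531, 7516 and 8355 CPM in young GFP and 6779.6, 6247, 6806 and 7350.0 CPM in old GFP. In oldest-old GFP it had 5519, 6735, 6935 and 4479.7 CPM. Both older GFP groups lay wholly below young GFP, but young Sham, at 6509 to 8161 CPM of Tnnc2, overlapped with both. It fell in oldest-old against young GFP, with a log2 fold change of -0.40 ± 0.12 (SE; adjusted p = 0.0236), and that in old against young GFP was -0.20 ± 0.12 (SE; adjusted p = 0.355). The call for Tnnc2 was lost without oldest-old GFP 1 or 4 or young GFP 1 or 4, with adjusted p between 0.0536 and 0.0707, and also with no filter (adjusted p = 0.0522) or when only the groups compared were fitted (0.107). Mylpf (chr7:127208890-127214298, plus strand), the fast regulatory light chain, had 7855, 7949, 7568 and 7592 CPM in young GFP and 6228, 6284, 6585 and 6951 CPM in old GFP. Its oldest-old GFP values were 6486, 7006, 6997 and 4811 CPM. Mylpf too lay below the young GFP range in every older GFP library. Young Sham, at 6419 to 8367 CPM of Mylpf, overlapped with both older GFP groups. The log2 fold changes of Mylpf against young GFP were -0.25 ± 0.11 (SE; adjusted p = 0.197) in old and -0.29 ± 0.11 (SE; adjusted p = 0.0686) in oldest-old GFP. Neither passed the test. Without oldest-old GFP 2, Mylpf and Myl1 passed, with adjusted p of 0.0480 and 0.0251. They also passed with DESeq2 on all libraries, with adjusted p of 0.0304 and 0.0315. Myl1 (chr1:66924295-66945404, minus strand), the fast essential light chain, had 9436, 8241, 9064 and 9657 CPM in young GFP and 6874, 8382, 7562 and 3777 CPM in oldest-old GFP, where replicate 4 was the lowest of all 24 libraries. Its log2 fold change there was -0.45 ± 0.16 (SE; adjusted p = 0.0674). For Tnni2 (chr7:142441808-142444410, plus strand) and Tnnt3 (chr7:142498836-142516009, plus strand), the fast troponins I and T, the groups overlapped, and the log2 fold changes in oldest-old against young GFP were -0.09 ± 0.10 (SE; adjusted p = 0.554) and -0.20 ± 0.10 (SE; adjusted p = 0.212).

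**Figure D3:**
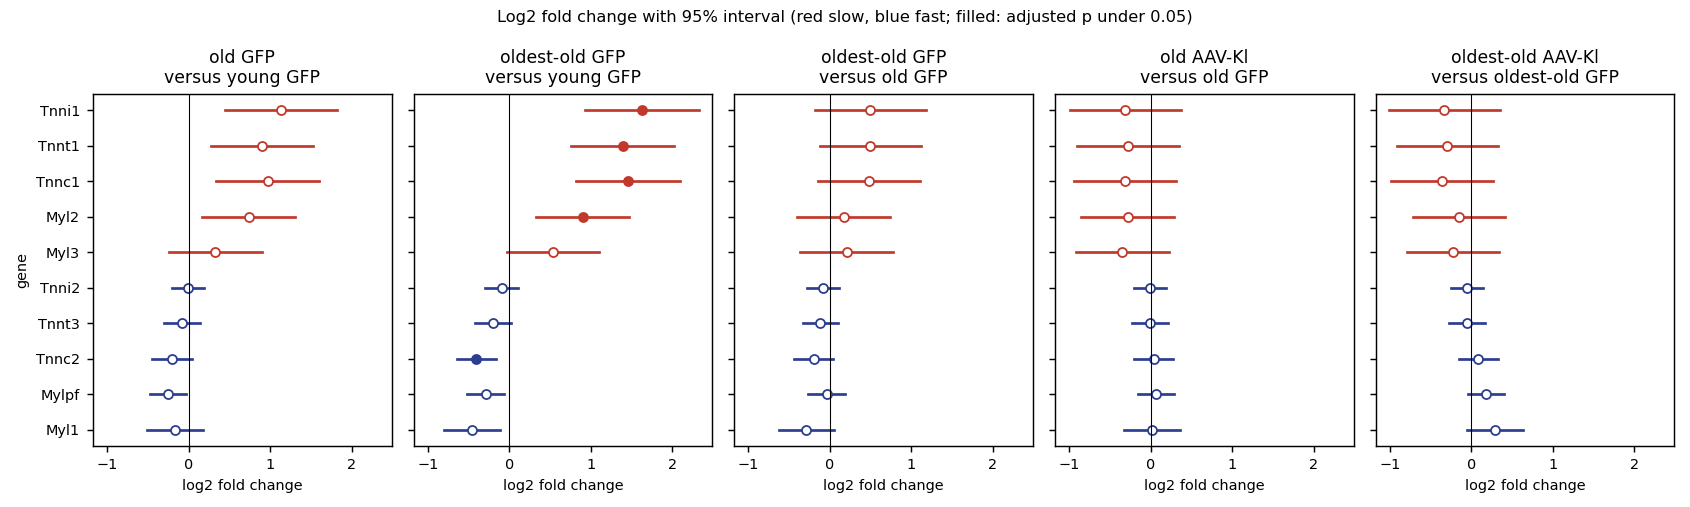
Log2 fold change (x axis) of the 10 members in 5 comparisons, with 95% intervals, slow members in red and fast ones in blue, and filled points where the adjusted p was under 0.05. In oldest-old against young GFP, Tnni1, Tnnt1, Tnnc1 and Myl2 lay above 0 and Tnnc2 below 0 with filled points.

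In old against young GFP, 4 of 5 slow members were higher and 2 of 5 fast members lower without overlap between the groups. Of all genes, 8.69% were higher and 6.91% lower in that way. In oldest-old against young GFP, 3 slow members were higher and 2 fast members lower without overlap, beside 10.4% and 8% of all genes. The calls in oldest-old GFP were lost without the young libraries with high keratinocyte markers. Without young GFP 1 and 3 none of the 10 members passed the test in oldest-old against young GFP, where 874 of 18620 genes still did. The log2 fold changes then were 1.51 ± 0.44 (SE; adjusted p = 0.0538) for Tnni1, 1.32 ± 0.39 (SE; adjusted p = 0.0586) for Tnnt1 and 1.39 ± 0.40 (SE; adjusted p = 0.0522) for Tnnc1. For Myl2 the value was 0.86 ± 0.35 (SE; adjusted p = 0.162), and for Tnnc2 it was -0.45 ± 0.15 (SE; adjusted p = 0.0877). That fit had 2 young GFP libraries in place of 4. In old against young GFP, Tnni1, Tnnt1 and Tnnc1 passed the test with DESeq2, which called 1226 genes, with adjusted p of 0.0118, 0.0392 and 0.0241.

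From old to oldest-old GFP the slow members were again higher and the fast members lower, with 95% intervals that included 0 for all 10 (Mylpf turned positive with library totals alone as the scaling). None of the 10 passed the test, and 1 gene in all did (0.00562%). The log2 fold changes were 0.17 to 0.50 for the slow members and -0.29 to -0.04 for the fast ones, with adjusted p of at least 0.503. The 95% interval for Tnni1 ran from -0.18 to 1.17. Without oldest-old GFP 1 the values of Myl2 and Myl3 turned negative, at -0.10 and -0.09. No member was free of overlap between these groups, where 5.64% of genes were. By the unadjusted p, 2136 genes were under 0.05, and DESeq2 called 120. The oldest-old group was spread more widely than the old one. Tnni1 had 119 ± 24.7 CPM (SD, n = 4) in old GFP and 168 ± 76.3 CPM (SD, n = 4) in oldest-old GFP. Among these 8 libraries the mean log2 CPM of the slow members was highest in oldest-old GFP 1 and 4, which also held the least Tnnc2, with 5519 and 4479.7 CPM. Old GFP 3 came close to oldest-old GFP 4 in that mean (8.14 and 8.15) and had 6806 CPM of Tnnc2.

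The balance within each pair shows the same shift with the fast paralog as the reference in each library. These ratios are numbers of slow reads per 100 fast reads, are not corrected for length, and are given as a description with no test. Tnni1 per 100 Tnni2 reads numbered 0.855, 1.06, 0.697 and 0.704 in young GFP. In old GFP the ratio was 1.69, 1.87, 2.28 and 1.45, and in oldest-old GFP it was 5.04, 1.89, 1.46 and 3.00. All 8 older libraries were above the young ones, and the means were 0.830 ± 0.171 in young GFP, 1.82 ± 0.353 in old GFP and 2.85 ± 1.60 in the oldest-old (SD, n = 4 each). For Tnnt1 per 100 Tnnt3 reads the means were 0.760 ± 0.167, 1.49 ± 0.265 and 2.36 ± 1.06 (SD, n = 4 each), again without overlap with young GFP. Tnnc1 per 100 Tnnc2 reads numbered 1.13, 1.25, 0.870 and 0.821 in young GFP. In old GFP these were 2.11, 2.24, 3.03 and 1.79, and in oldest-old GFP 5.72, 2.38, 1.95 and 5.73. This was the pair with the largest difference of the 5, a ratio 3.51 times as high in oldest-old as in young GFP. In the regulatory light chains the mean Myl2 per 100 Mylpf reads was 2.56 ± 0.406 in young GFP, 5.09 ± 1.14 in old GFP and 6.03 ± 2.39 in the oldest-old (SD, n = 4 each), without overlap with young GFP. The essential light chains overlapped between ages, with means of 2.21 ± 0.363, 3.11 ± 0.737 and 4.76 ± 2.36 Myl3 per 100 Myl1 reads (SD, n = 4 each). Between old and oldest-old GFP every pair overlapped.

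**Figure D4:**
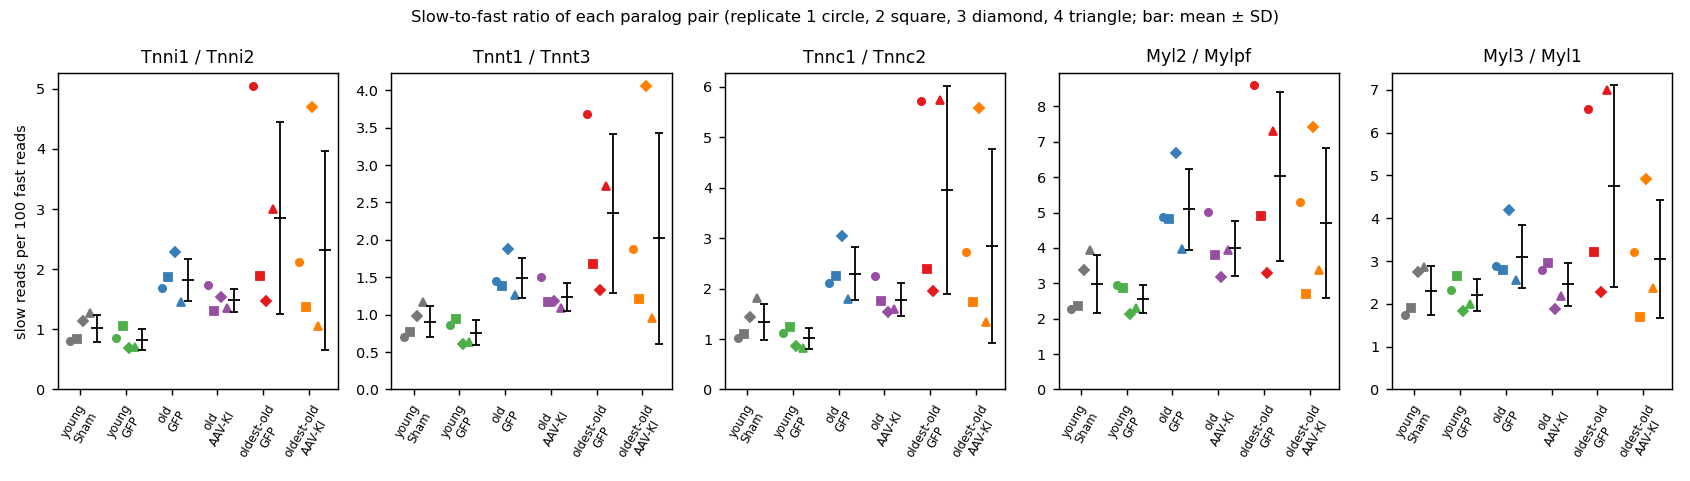
Slow reads per 100 fast reads (y axis from 0) for the 5 paralog pairs in each library, by group, with the mean ± SD of 4 libraries in black. Oldest-old GFP 1 and 4 and oldest-old AAV-Kl 3 were the highest libraries in each pair, at 5.04, 3.00 and 4.69 for Tnni1 per 100 Tnni2.

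The comparison of AAV-Kl with AAV-GFP asks whether Klotho moved these genes at either age. No member passed the test in old mice, where no gene did (0%), or in oldest-old mice, where 2 genes did (0.0112%). All 5 slow members had negative log2 fold changes in both, from -0.35 to -0.28 in old and from -0.36 to -0.15 in oldest-old mice, against medians over all genes of 0.0076 and 0.012. The slow members followed each other closely within groups, as given below, so their signs are not 5 independent results. In oldest-old mice the direction for Tnni1, Myl2 and Myl3 rested on single libraries. Without oldest-old GFP 1 the values were 0.0086 for Tnni1, 0.11 for Myl2 and 0.07 for Myl3, and without oldest-old AAV-Kl 2 that of Myl2 was 0.06. Tnnt1 and Tnnc1 stayed negative whichever library was left out, at -0.79 to -0.04 and -0.81 to -0.12. The count of members called was also 0 without old GFP 1 and 4, and without old AAV-Kl 2, old AAV-Kl 4 or oldest-old AAV-Kl 2, the libraries with high liver or adipocyte markers. The unadjusted p was under 0.05 for 383 genes in old mice, where DESeq2 called 0, and for 1437 genes in oldest-old mice, where DESeq2 called 26.

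Tnni1 had 120.0, 88.8, 84.4 and 92.0 CPM in old AAV-Kl, a range that overlapped with old GFP, and its log2 fold change was -0.31 ± 0.33 (SE; adjusted p = 0.99985) with a 95% interval of -0.99 to 0.37. In oldest-old AAV-Kl it had 125, 74.7, 264 and 72.3 CPM. Replicate 3 was close to the highest oldest-old GFP library, while replicates 2 and 4 lay below every oldest-old GFP library. The log2 fold change of Tnni1 was -0.33 ± 0.33 (SE; adjusted p = 0.818) in oldest-old mice, with a 95% interval of -1.01 to 0.35. Tnnt1 had 305, 247, 202 and 218 CPM in old AAV-Kl and 325, 191, 634 and 204 CPM in oldest-old AAV-Kl, where replicate 3 was again the highest. For Tnnc1 the log2 fold change under AAV-Kl was -0.32 ± 0.30 (SE; adjusted p = 0.99985) in old and -0.36 ± 0.30 (SE; adjusted p = 0.775) in oldest-old mice. Myl2 differed by -0.28 ± 0.27 (SE; adjusted p = 0.99985) and -0.15 ± 0.27 (SE; adjusted p = 0.901), and Myl3 by -0.35 ± 0.27 (SE; adjusted p = 0.99985) and -0.22 ± 0.27 (SE; adjusted p = 0.851). All of these intervals included 0, so a change in either direction within them was not resolved. The widest of the slow intervals in old mice, that of Tnni1, allows a fold between 0.504 and 1.29.

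Fast members under AAV-Kl had log2 fold changes of -0.01 to 0.06 in old and -0.06 to 0.29 in oldest-old mice. The largest was that of Myl1 in oldest-old mice, 0.29 ± 0.16 (SE; adjusted p = 0.662), which compares 7556, 7418, 8198 and 9317 CPM with the oldest-old GFP group that holds the low replicate 4. Mylpf differed by 0.18 ± 0.11 (SE; adjusted p = 0.669) there. Groups overlapped for all 10 members at both ages, where 1.68% and 2.65% of genes did not. Both AAV-Kl comparisons use the GFP groups that also enter the comparisons between ages, so their values are not independent of those. No member passed the test of a difference between the AAV-Kl responses of oldest-old and old mice, with differences of -0.04 to 0.27 on the log2 scale and a lowest adjusted p of 0.919. In that test 1 of 17803 genes passed (0.00562%), 1026 had an unadjusted p under 0.05, and DESeq2 also called 1. The pair ratios overlapped too. Tnni1 per 100 Tnni2 reads numbered 1.73, 1.31, 1.54 and 1.35 in old AAV-Kl and 2.12, 1.37, 4.69 and 1.06 in oldest-old AAV-Kl. Old AAV-Kl libraries were all above the young GFP maximum of 1.06, and oldest-old AAV-Kl 4, the lowest of its group, was nearly at that maximum.

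No member passed the test between young GFP and young Sham mice, where 0.472% of genes did. The log2 fold changes ran from -0.25 for Tnnc1 to 0.14 for Tnnt3, with adjusted p of at least 0.545. Tnni1 had 54.6, 51.1, 64.0 and 71.2 CPM in Sham. The count of members called was also 0 without young GFP 1 and 3 and without young Sham 4. By the unadjusted p, 2389 genes were under 0.05, and DESeq2 called 284. The mean Tnni1 per 100 Tnni2 reads was 1.01 ± 0.230 in Sham (SD, n = 4), which overlapped with young GFP.

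Slow members followed each other closely from library to library. Across the 24 libraries, Pearson's r of log2 CPM between the 10 pairs of slow members ran from 0.799 to 0.991, with a median of 0.936. With group means removed the median was 0.917, so the members moved together within groups as well. Slow members that share a direction in a comparison are therefore not independent results. Fast members were related more loosely, with r from 0.361 to 0.930 and a median of 0.754. Between slow and fast members r ran from -0.757 to -0.155, and the means of the 2 classes had an r of -0.56, or -0.32 with group means removed. These values are descriptions over 24 libraries that share 6 groups and a common scaling, in which a gene that takes more of the reads leaves fewer for others.

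**Figure D5:**
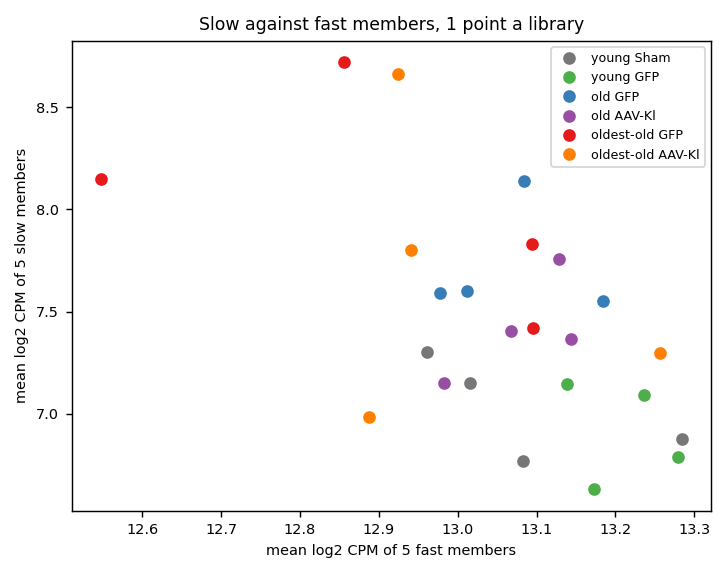
Mean log2 CPM of the 5 slow members (y axis) against that of the 5 fast members (x axis), 1 point a library, colored by group. Oldest-old GFP spanned 7.42 to 8.72 on the slow axis and 12.5 to 13.1 on the fast one, against 6.63 to 7.14 and 13.1 to 13.3 in young GFP.

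The genes whose log2 CPM followed the mean of the slow members most closely were Myh7, the slow myosin heavy chain (r = 0.979 over 24 libraries), Atp2a2, the slow and cardiac calcium pump (0.976), Tpm3, the slow tropomyosin (0.957), and Myh7b, a slow myosin (0.955). They were followed by Xpo4, a nuclear export receptor (0.948), Tpm3-rs7 (0.931), Tecrl (0.921) and Gm30970 (0.902). Tpm3-rs7 is a copy related to Tpm3, and reads of the pair may be split between them. For the fast members the closest genes were Tpm1, a tropomyosin (0.935), Ak1, the muscle adenylate kinase (0.926), Immp1l (0.925) and Eno3, the muscle enolase (0.919), then Capzb, Sema4d, Tcea3 and Pgm1 at 0.911 to 0.913. Myh7 kept 54.6% of its strand-summed reads without regard to strand, and its values here rest on those reads.

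Sequence before 1 RefSeq start of each slow troponin gene is shown because these 3 genes moved together. For Tnni1 and Tnnt1 that window lies within the gene span given above. RefSeq (GRCm38.p6) gave 10 upstream windows for 8 of the 10 members, Tnni2 and Tnnt3 aside. Capitals mark CANNTG, the E-box core that myogenic factors such as MyoD bind, searched on both strands in the 250 bases before each start. It occurs 4 times for Tnni1 (chr1:135799171-135799420, plus strand), 1 time for Tnnt1 (chr7:4515976-4516225, minus strand) and 2 times for Tnnc1 (chr14:31208062-31208311, plus strand).
Tnni1: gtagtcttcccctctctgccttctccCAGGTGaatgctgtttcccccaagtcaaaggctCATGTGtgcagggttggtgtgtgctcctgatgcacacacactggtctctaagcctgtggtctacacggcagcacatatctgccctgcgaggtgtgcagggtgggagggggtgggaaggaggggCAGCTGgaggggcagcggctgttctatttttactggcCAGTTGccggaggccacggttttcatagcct
Tnnt1: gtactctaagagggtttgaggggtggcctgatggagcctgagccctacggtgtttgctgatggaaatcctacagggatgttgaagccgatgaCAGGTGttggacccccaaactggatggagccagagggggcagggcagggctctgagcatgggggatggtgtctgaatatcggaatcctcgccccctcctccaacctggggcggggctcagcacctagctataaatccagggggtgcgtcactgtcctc
Tnnc1: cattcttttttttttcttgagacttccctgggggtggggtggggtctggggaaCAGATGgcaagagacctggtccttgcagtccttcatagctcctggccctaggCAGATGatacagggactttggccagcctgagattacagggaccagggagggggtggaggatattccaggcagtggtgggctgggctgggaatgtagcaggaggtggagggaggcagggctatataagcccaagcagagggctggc

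All 10 windows of the 8 members held CANNTG, as did 66.2% of the 32851 windows of the table. CAGCTG, a form of CANNTG, was found in 5 of the 10 windows (Tnni1, Myl1, Myl2 and Mylpf) and in 13% of all windows. CATTCC, the core of the M-CAT element, was found in 3 of the 10 (Tnnc1, Myl1 and Myl3) and in 12.6% of all windows. The MEF2 motif, found in 2.92% of windows, was in none of the members' windows. The CArG box, found in 1.47%, was in 1 of them, of Myl3. TATAAA was found in 3 of the 10 (Tnnt1, Myl1 and Myl2) and in 12.4% of all windows. A match describes the letters of the window only, and binding was not measured.

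Of 12 other slow fiber genes, 7 rose and none fell in oldest-old against young GFP, with a median log2 fold change of 0.93 against 0.027 over all genes, where 14.9% of genes passed the test, and 1 rose in old against young GFP. Sln, which encodes sarcolipin, an inhibitor of the calcium pump, went from 1.005 ± 0.217 CPM in young GFP to 8.16 ± 5.66 CPM in old GFP and 30.4 ± 18.7 CPM in the oldest-old (SD, n = 4 each). It rose in both (3.01 ± 0.61, adjusted p = 0.00662 in old, and 4.91 ± 0.63, adjusted p = 8.19e-05 in oldest-old, on the log2 scale). Tpm3 went from 147 ± 19.4 to 454 ± 185 CPM (1.62 ± 0.31, adjusted p = 0.00201). Myh7 rose by 1.75 ± 0.36, adjusted p = 0.00303, and Myh7b by 1.49 ± 0.36, adjusted p = 0.00874. None of the 12 passed the test under AAV-Kl or between old and oldest-old GFP.

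Of 11 other fast fiber genes, 3 fell and 1 rose in oldest-old against young GFP, with a median log2 fold change of -0.31. The share of all genes that passed there, 14.9%, applies also to the sarcomere genes below. Pvalb, the fast-fiber calcium buffer parvalbumin, went from 8496 ± 336 CPM in young to 5404 ± 1417 CPM in oldest-old GFP (-0.65 ± 0.16, adjusted p = 0.00916). Casq1, the fast calcium store of the sarcoplasmic reticulum, changed by -0.73 ± 0.19, adjusted p = 0.0145, and Myh4, the type IIB myosin, by -0.33 ± 0.11, adjusted p = 0.0473. Myh1, the type IIX myosin, rose by 0.64 ± 0.16, adjusted p = 0.00939. Of 12 sarcomere genes common to both fiber types, 2 rose, Des (0.41 ± 0.09, adjusted p = 0.00591) and Actn2 (0.60 ± 0.19, adjusted p = 0.0352), with a median of 0.045. Casq1 kept 77.3% and Myh1 87.5% of their strand-summed reads.

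Cardiac and embryonic isoforms did not move as a block. Of the 7 that could be tested, 2 rose and 1 fell in oldest-old against young GFP, with a median of 0.73, where 14.9% of all genes passed. Myh3, the embryonic myosin, rose by 1.88 ± 0.31, adjusted p = 0.000571, from 3.93 ± 0.879 to 14.4 ± 5.18 CPM. Tnnt2, the cardiac troponin T, rose by 1.15 ± 0.26, adjusted p = 0.00582 and stayed at 3.77 ± 1.63 CPM. Actc1, the cardiac actin, fell by 2.62 ± 0.57 (adjusted p = 0.00443), from 886 ± 239 to 144 ± 100.5 CPM. The first and last of these passed in old against young GFP too.

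Among 17 regulators of fiber type, 3 rose and 1 fell in oldest-old against young GFP, with a median of 0.12. In that comparison 14.9% of all genes passed the test. Those that rose included Six4 (0.78 ± 0.15, adjusted p = 0.00161), a homeobox factor of muscle, and Prox1 (0.85 ± 0.22, adjusted p = 0.0129), which is known for its part in slow fibers. Ppargc1a, the coactivator of mitochondrial and slow-fiber genes, had 111 ± 42.3 CPM in young GFP and 41.02 ± 1.60 CPM in oldest-old GFP. It fell by 1.44 ± 0.21 (adjusted p = 0.00023), but young Sham had 48.4 ± 9.84 CPM, and young GFP exceeded Sham by 1.20 ± 0.21, adjusted p = 0.0127. Of 8 markers of denervation and reinnervation, 7 rose in oldest-old against young GFP, with a median of 1.36, and none in old. Myog, a myogenic transcription factor, rose by 1.60 ± 0.35, adjusted p = 0.00469, Chrng, the fetal acetylcholine receptor subunit, by 3.61 ± 0.89, adjusted p = 0.00978, and Ncam1 by 0.80 ± 0.20, adjusted p = 0.00987. Chrng was very low throughout, with 0.0998 ± 0.0994 CPM in young and 1.21 ± 0.700 CPM in oldest-old GFP (SD, n = 4 each). Ncam1 kept 67.0% of its strand-summed reads.

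Markers of other cell types also differed between the age groups, where 14.9% of all genes passed in oldest-old and 4.7% in old against young GFP. As given above, keratinocyte markers were high in young GFP 1 and 3, and liver markers in old GFP 1 and 4. Keratinocyte markers summed to 11.5 to 149 CPM in young Sham, with a median of 14.8 CPM. Liver markers summed to 0.531 to 1.15 CPM in oldest-old GFP. Of 5 erythroid genes all 5 rose in oldest-old against young GFP, with summed levels of 63.1 to 101 CPM in young and 90.01 to 657 CPM in oldest-old GFP. Oldest-old GFP 1 and 4, with the highest mean log2 CPM of slow members among the GFP libraries (8.72 and 8.15), had 603 and 657 CPM. Old GFP 3, with nearly the same slow mean as the latter (8.14), had 150 CPM. Oldest-old AAV-Kl 3, with a slow mean of 8.66, had 128 CPM, and old AAV-Kl 1 and 2, with slow means of 7.76 and 7.41, had 483 and 360.2 CPM. Of 8 keratinocyte genes 4 fell, and of 6 tendon fibroblast genes 1 fell, Col1a1. The tendon genes summed to 396 to 629 CPM in young and 72.7 to 292 CPM in oldest-old GFP, with the lowest value in oldest-old GFP 4. Of 3 tested cardiomyocyte genes 1 rose, Tnnt2, and the 6 summed to 3.79 to 4.57 CPM in young and 4.34 to 13.1 CPM in oldest-old GFP. Of 6 skeletal muscle fiber markers 1 rose (Des) and 1 fell (Cacna1s). They summed to 55834 to 61799 CPM in young and 40689 to 58908 CPM in oldest-old GFP. The lowest sum was that of oldest-old GFP 4, and the next lowest of its group was 54831 CPM. Oldest-old GFP 4 was also the lowest of all 24 libraries in Tnnc2, Mylpf and Myl1. No gene of the liver (8), adipocyte (6), macrophage (6) or Schwann cell (6) lists passed in oldest-old against young GFP. In old against young GFP the 8 liver genes rose, and none of the 10 members passed the test there with or without old GFP 1 and 4. The part of these markers in the members' values was not tested.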

How the data were processed

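The deposited files hold, for each of 24 libraries, the authors' unnormalized read counts per gene from STAR on the mouse genome mm10 (GRCm38), without regard to strand and by each strand, for 55385 genes. Libraries were grouped by the labels. The members and all gene lists were chosen with earlier results of these data known. Counts were fitted in edgeR 4.0.16 (R 4.3.3) with TMM scaling, filterByExpr and the quasi-likelihood test, in 1 fit of the 6 groups, and p-values were adjusted over all 17803 genes by the Benjamini-Hochberg method at a threshold of 0.05. Libraries held a count of 36415886 to 59733985 reads on genes, and standard errors cover counting error and the spread between libraries together. Tnnc2 was taken from the summed strand columns, fitted in the same way on a table changed in that row only. The test was checked on simulated data. Ratios are descriptions without a test. All 10 members are named, and of each other list up to 4 genes with the lowest p among those called in a comparison, plus the 8 genes closest to each class mean by Pearson's r. Some genes that this rule names are not reported here. Gene symbols, lengths and positions came from GENCODE M21, coding sequences from its transcripts, and upstream windows from RefSeq. Alternatives were DESeq2 (1.42.0) and its size factors, library totals alone, no filter, each strand column, only the groups compared, 20 libraries without Sham, a replicate block, leaving out single libraries, and leaving out those with high keratinocyte or liver markers.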

Additional observations from a re-analysis of the deposited data

Results flagged for a closer look

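In old AAV-Kl mice, Tnni2, the fast troponin I, had 6932, 6784, 5488 and 6820 CPM, and replicate 3 stood apart from the other 3 on the log2 scale. Its gap to the nearest library was 0.907 of the range of the group, above Dixon's critical value for 4 samples. This was the single flag among 90 sets of 4 libraries examined, where chance flags about 1 in 20. The same library was the lowest of its group in Tnnt3, with 17001 CPM, in Tnnc2, with 6421 CPM, and in Mylpf, with 6399 CPM, and the highest in Myl1, with 9063 CPM.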

How the results depend on the processing

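In old against young GFP, 0 of 10 members passed the test, 3 with DESeq2 (Tnni1, Tnnt1 and Tnnc1) and 5 when only the groups compared were fitted (those, Myl2 and Mylpf). In oldest-old against young GFP, the count from reads without regard to strand was 4 members, 3 to 6 without single libraries and 0 without young GFP 1 and 3. With Tnnc2 from the strand columns it was 5, 3 to 7 without single libraries, 7 with DESeq2, 3 when only the groups compared were fitted and 0 without young GFP 1 and 3. The fit without young GFP 1 and 3 rests on fewer young libraries. In the other comparisons the count was 0 under every alternative run. Over all genes, the old against young count was 837, against 540 with the first strand column, 549 with the second, 553 with no filter, 1226 with DESeq2, 1275 in the groups compared, 375 to 679 without single libraries, 143 without young GFP 1 and 3 and 268 without old GFP 1 and 4. For oldest-old against young it was 2649, against 1755 with no filter, 3100 with DESeq2, 1249 in the groups compared, 1673 to 2755 without single libraries and 874 without young GFP 1 and 3. Scaled by library totals alone, 80.0% of the genes called in oldest-old against young GFP were higher, against 59.2%. The replicate block gave 0 and 4 members for old and oldest-old against young GFP and changed no count of members. Deviations of libraries with the same replicate number had mean correlations of -0.14 to 0.017, so the number was not taken to pair libraries. Values near 0 changed sign. With library totals alone these were Tnni2 in old (0.016) and oldest-old (9.4e-04) against young GFP, Mylpf in oldest-old against old GFP (0.025), and Myl3 (-0.073) and Myl1 (-0.012) in young GFP against Sham. With the second strand column they were Tnni2 in old against young GFP (0.071) and, in old AAV-Kl against old GFP, Tnnc2 (-0.032), Mylpf (-0.010) and Myl1 (-0.014), and with the first, Tnni2 (0.058) and Tnnt3 (0.068). Without old GFP 1 and 4 they were Myl2 in oldest-old against old GFP (-0.0065) and Tnni2 (0.016) and Tnnt3 (0.030) in old AAV-Kl against old GFP. The cause was not tested. Leaving out single libraries gave -0.052 to 0.025 for Tnni2 in old against young GFP, and in oldest-old against old GFP -0.10 to 0.34 for Myl2, -0.093 to 0.38 for Myl3 and -0.095 to 0.066 for Mylpf. In old AAV-Kl against old GFP it gave -0.046 to 0.061 for Tnni2, -0.050 to 0.052 for Tnnt3, -0.0078 to 0.080 for Tnnc2 and -0.038 to 0.11 for Myl1. In oldest-old AAV-Kl against GFP it gave -0.89 to 0.0086 for Tnni1, -0.46 to 0.11 for Myl2, -0.55 to 0.074 for Myl3, -0.17 to 0.0020 for Tnnt3 and -0.027 to 0.17 for Tnnc2. In young GFP against Sham it gave -0.16 to 0.037 for Tnnt1, -0.17 to 0.029 for Myl2 and -0.041 to 0.13 for Myl3.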
